A study of Drosophila melanogaster with 6 samples.

Results

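The genes described here are 37 transcription factors that shape the sensory neurons of the Drosophila melanogaster antenna, out of 17698 gene identifiers counted by RNA-seq. They were chosen by FlyBase symbol, and all 37 symbols matched 1 identifier each. Antennae were taken whole from females of 2 genotypes. PCD-blocked flies (peb-Gal4/+;Or49a-GFP/UAS-p35) expressed p35, a baculoviral inhibitor of caspases, so that programmed cell death (PCD) was blocked where the driver is active, and control flies (peb-Gal4/+;Or49a-GFP/+) lacked p35. Both genotypes therefore carried 1 copy of the Gal4 driver at the gene peb and 1 copy of a reporter for the odorant receptor gene Or49a. Each group had 3 libraries in 3 labelled sample pairs, and 1 library pooled antennae from about 350 flies, so the spread between libraries is that between pools of animals. The labels give no age.

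Olfactory and mechanosensory organs of the antenna arise from single precursor cells. Proneural factors select the precursor, and rounds of asymmetric division controlled by Notch produce support cells and neurons. Some of the neurons born are removed by caspase-dependent death. Patterning factors set which precursor forms where, and factors that persist in the adult neuron select which odorant receptor gene it expresses. The comparison addressed which transcript levels differ in antennae in which that death was blocked.

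Libraries held 15588725 to 17808516 counts assigned to genes. Levels are in CPM (read counts scaled to a common library size after TMM normalisation), and 1 count was worth 0.0562 to 0.0637 CPM. Neuronal markers were abundant in both groups: summed over 7 of them, they reached 5926 to 6043 CPM in PCD-blocked libraries and 5586 to 5762 CPM in control libraries, and 1 of them (Ir25a) was called higher. Summed markers of sensillar support cells were at 30110.3 to 31214 CPM in PCD-blocked libraries and 35579 to 37094 CPM in control libraries, with 2 of 6 called higher (nompA, Obp28a) and 2 lower (lush, Obp19d). The most abundant of them, the odorant-binding protein gene Obp19d, alone had 15533 ± 280.3 CPM in PCD-blocked antennae and 21064 ± 530.1 CPM in control antennae (SD, n = 3), so that the sum mostly follows this gene, and the median log2 fold change of the 6 was -0.01. Summed glial markers were at 3209 to 3344 CPM in PCD-blocked libraries, against 3773 to 3829 CPM in control libraries. Of 6 such markers 4 were tested, with 1 called higher (repo), 1 lower (Gs2), and moody and nrv2 not called. Most of the sum was Gs2, with 2788 ± 33.0 CPM in PCD-blocked antennae and 3290 ± 11.5 CPM in control antennae (SD, n = 3). Muscle markers varied between libraries of both groups, at 5.03 to 57.6 CPM in PCD-blocked libraries and 6.24 to 47.1 CPM in control libraries, and none of 5 was called or had an unadjusted p under 0.05 with all 3 pairs (DESeq2 also called 0). The spread was carried by single libraries: Mhc, the muscle myosin heavy chain, had 0, 32 and 384 counts in PCD-blocked libraries 1 to 3, against 51, 292 and 22 in control libraries 1 to 3. Without sample pair 3, 4 of the 5 were called lower: Mhc at -3.45 on the log2 scale (adjusted p = 0.000153), up at -3.96 (0.000407), Mlc2 at -2.66 (0.00963) and bt at -1.28 (0.00796). The opsin genes ninaE, Rh3 and Rh4 had at most 4 counts in any library. Hemocyte markers summed to 61.3 to 82.1 CPM in PCD-blocked libraries and 66.5 to 76.7 CPM in control libraries, with none called (2 were higher at an unadjusted p under 0.05, and DESeq2 called 0), and fat body markers to 64.6 to 72.0 CPM in PCD-blocked libraries and 35.6 to 106 CPM in control libraries, with apolpp called higher and Yp2 lower. The Yp2 level was 10.4, 6.48 and 10.2 CPM in PCD-blocked libraries 1 to 3, against 65.1, 18.7 and 12.0 CPM in control libraries 1 to 3, and its log2 fold change of -1.59 was -0.87 without sample pair 1 and no longer called (adjusted p = 0.0506), nor was it without sample pair 2 (0.0864) or with DESeq2 (0.121). Photoreceptor markers of the head summed to 14.5 to 17.5 CPM in PCD-blocked libraries and 7.08 to 8.14 CPM in control libraries, and trp was called higher.

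Of the 37 factors, 29 passed the expression filter and 8 did not. In PCD-blocked antennae 8 were higher and 7 lower (edgeR quasi-likelihood test with the sample pair as a block, Benjamini-Hochberg adjusted p under 0.05). That is 51.7% of the tested factors, where 27.7% of all 9181 tested genes were called, 14.3% higher and 13.3% lower. The factors were chosen with earlier results of these data known, so the difference between these shares is no test of the factors. Restricted to genes with at least 10 CPM on average over the 6 libraries, a level chosen after the values were seen, 13 of 24 factors were called, against 30.7% of genes at that level. By far the largest change was that of nerfin-1, a zinc finger gene, with a log2 fold change of 6.05. Of the other 14 called factors only ham, with 1.14, differed by more than 1.5-fold. Changes of that size were called in 6.51% of all tested genes. The 3 PCD-blocked libraries lay all above the 3 control libraries for 9 tested factors and all below them for 5, which held for 19.9% and 18.8% of all tested genes, or 38.7% in either direction. In these bulk samples fewer cells of a type and less RNA per cell cannot be told apart, for these and all results below. The median log2 fold change of the tested factors was 0.00, as was that of all tested genes.

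The calls for nerfin-1, pdm3, en, pros, hth and bab2 were made in each of the 9 alternative analyses, and the remaining 9 calls were lost in at least 1. DESeq2 called 2 factors higher and 6 lower, 3 were higher and 6 lower without sample pair 2, and 4 were higher and 7 lower without sample pair 3. Calls over all tested genes fell as well, from 1314 higher and 1225 lower to 653 and 662 with DESeq2. They were 753 and 728 of 9200 genes without sample pair 2, and 986 and 1001 of 9194 genes without sample pair 3.

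**Figure D1:**
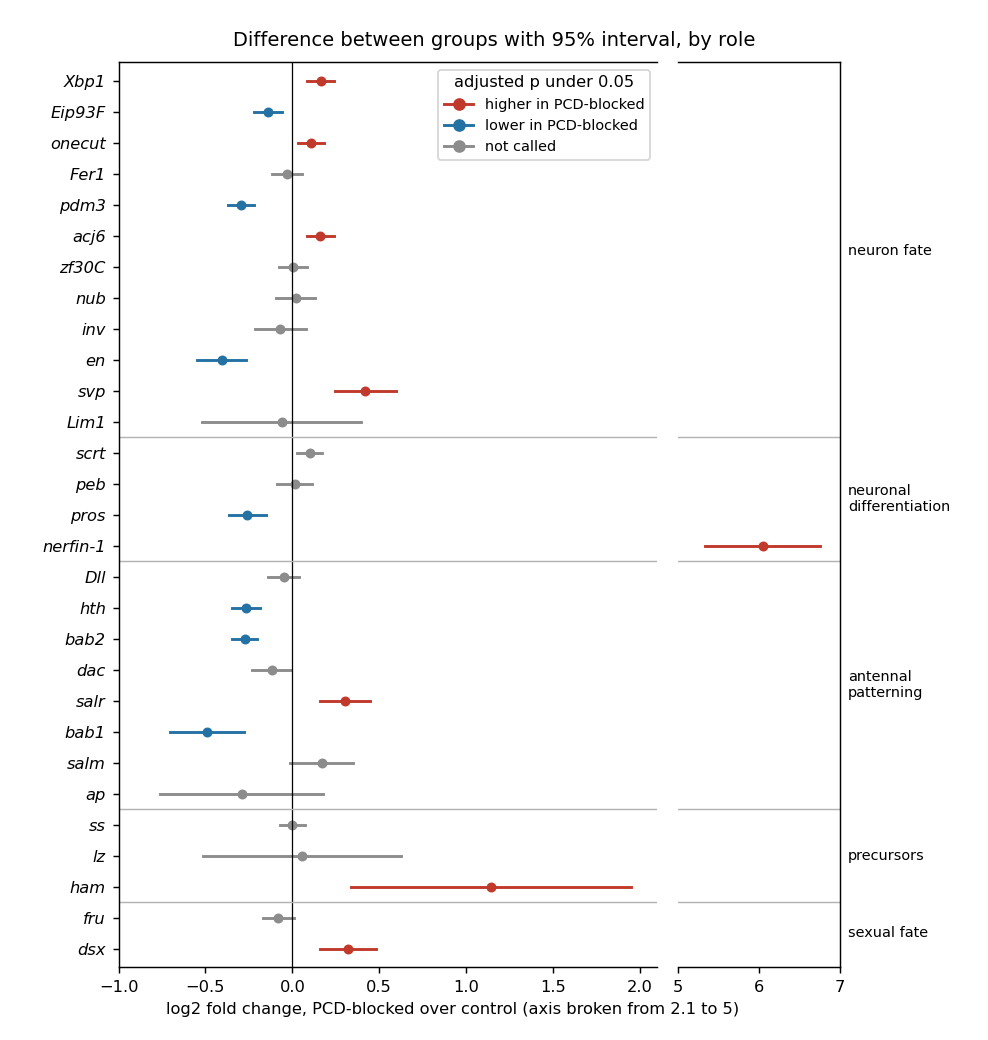
Log2 fold change of each tested factor (horizontal axis, PCD-blocked over control, broken between 2.1 and 5) with its 95% interval, grouped by role; colour gives the call. The value for nerfin-1, 6.05, stands apart from the other 28, which lie between -0.49 for bab1 and 1.14 for ham. The interval drawn for nerfin-1 is too narrow, as its control value rested on 7 counts.

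Levels of the factors spanned more than 3 orders of magnitude. Per kilobase of annotated exon, Xbp1, a bZIP factor of the unfolded protein response, had the highest level, with 324 ± 6.78 in PCD-blocked antennae and 289 ± 5.59 in control antennae (CPM per kb, SD, n = 3). Distal-less (Dll), which specifies the appendage, followed with 139 ± 10.5 in PCD-blocked antennae and 144 ± 5.94 in control antennae. Next came spineless (ss), a bHLH-PAS factor that gives the distal antenna its identity, with 115 ± 6.23 in PCD-blocked antennae and 115 ± 6.27 in control antennae, and the bHLH gene Fer1, with 92.5 ± 6.42 in PCD-blocked antennae and 94.5 ± 2.83 in control antennae. In control antennae the spreads of these 4 neighbours in the order did not overlap. At the low end, the tested factors Lim1, ap, lz and ham had under 1 CPM per kb in both groups.

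**Figure D2:**
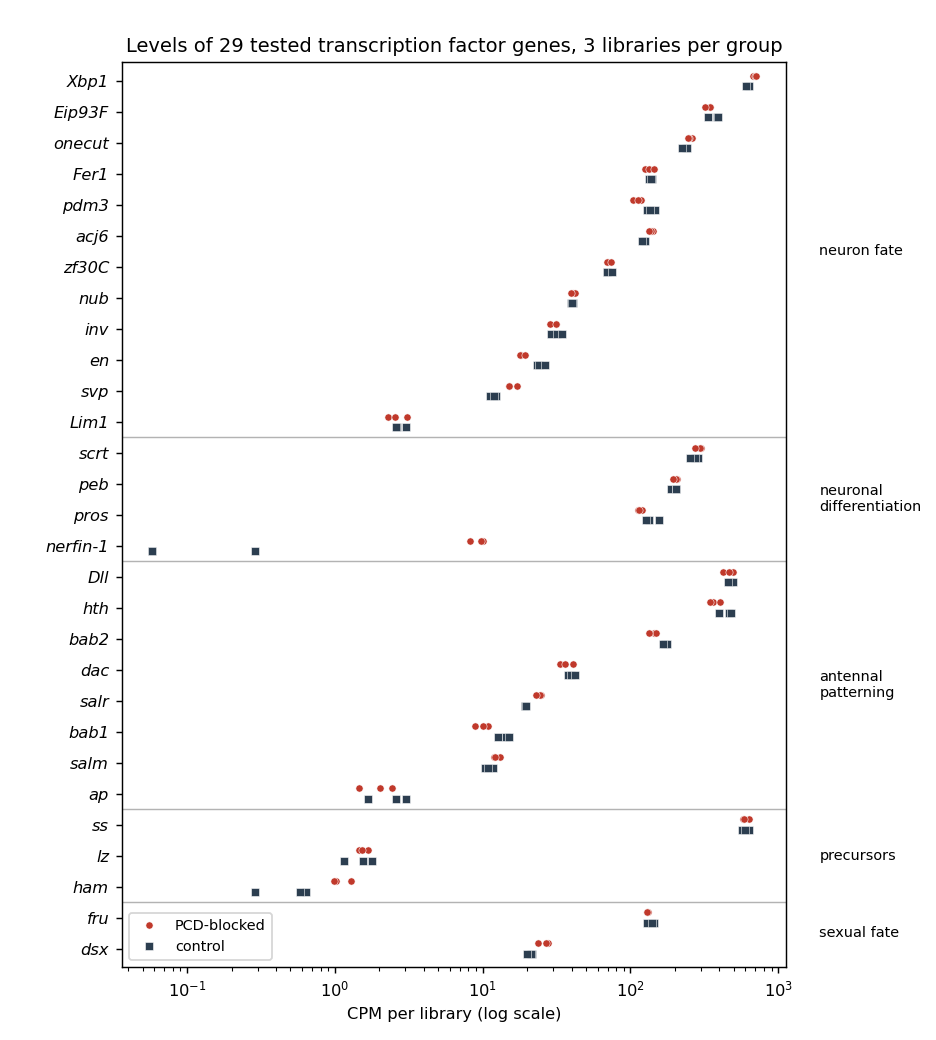
Level of each tested factor in each library (horizontal axis, CPM on a log scale), with PCD-blocked libraries as circles above control libraries as squares, grouped by role and ordered by the control mean. Most factors lie at nearly the same level in both groups; the nerfin-1 libraries fall at 8.14 CPM or more in PCD-blocked antennae and at 0.288 CPM or less in control antennae.

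Factors of neuronal differentiation were considered first. The gene nerfin-1 (FBgn0028999, chromosome 3L, 909112 to 912319) encodes a zinc finger protein that is made in neuronal precursors and newborn neurons and helps neurons hold their differentiated state. It had 158, 168 and 145 counts in PCD-blocked libraries 1 to 3, against 5, 1 and 1 counts in control libraries 1 to 3. Its level was 9.31 ± 1.03 CPM in PCD-blocked antennae and 0.134 ± 0.133 CPM in control antennae (SD, n = 3), a log2 fold change of 6.05 with adjusted p = 3.91e-06 (edgeR). Every PCD-blocked library was above every control library, and the control value rested on 7 counts in all, so the size of the fold is less certain than its direction. Over the alternatives the log2 fold change ran from 5.68 to 7.10. In PCD-blocked antennae nerfin-1 stood at 2.90 ± 0.320 CPM per kb (SD, n = 3), close to the levels of dsx and svp per kb in the same libraries, 2.84 and 2.82. Neither annotated neighbour had a change of that size. The gene mat, 5301 bases away, had 0 counts in PCD-blocked libraries and 2 in control libraries. On the other side Glut1, a sugar transporter gene 1754 bases away, had 935 ± 24.3 CPM in PCD-blocked antennae and 852 ± 30.9 CPM in control antennae (log2 fold change 0.13 ± 0.04 (SE), adjusted p = 0.0337). The Glut1 call was lost without sample pair 1 (adjusted p = 0.15), without sample pair 2 (0.157) and with no block (0.0505), with the second of these the highest over the alternatives.

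Prospero (pros, FBgn0004595, chromosome 3R, 11328480 to 11407627), a homeodomain factor that is passed on in asymmetric divisions and marks the sheath cell of adult sense organs, fell. It had 112, 119.5 and 114 CPM in PCD-blocked libraries 1 to 3, against 132, 156 and 127 CPM in control libraries 1 to 3. The groups did not overlap, and the log2 fold change was -0.26 ± 0.05 (SE) with adjusted p = 0.00339 (edgeR). The support-cell markers given above moved in both directions, with lush and Obp19d lower and Obp28a higher. Among them nompA, which encodes a matrix protein secreted by support cells, was higher at 30.7 ± 1.43 CPM in PCD-blocked antennae and 17.9 ± 3.34 CPM in control antennae (SD, n = 3). The part of support cells in the pros result was not tested. Scratch (scrt), a pan-neuronal zinc finger gene, had 289 ± 13.6 CPM in PCD-blocked antennae and 270.1 ± 17.5 CPM in control antennae, with a log2 fold change of 0.10 ± 0.03 (SE), short of the threshold (adjusted p = 0.0503). It passed without sample pair 1 (adjusted p = 0.0475) and with a stricter filter (1 CPM in 3 libraries, 0.0491), with 0.0475 to 0.261 across the alternatives.

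The driver locus peb (FBgn0003053, chromosome X, 4617564 to 4627206) encodes Hindsight, a zinc finger factor of sensory neuron development, and both groups carry the Gal4 insertion there. Its level was 207, 204 and 193 CPM in PCD-blocked libraries 1 to 3, against 189, 204 and 205 CPM in control libraries 1 to 3. The groups overlapped, and the 95% interval of the log2 fold change, -0.09 to 0.11, bounds any difference at this depth. Its annotated neighbours Alms1b and lncRNA:CR32773 had at most 3 counts in any library.

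Factors of olfactory neuron fate and receptor choice moved in both directions and by little. Of 13 such genes 12 were tested, 4 were higher (svp, acj6, Xbp1, onecut), 3 lower (en, pdm3, Eip93F) and 5 did not pass. The share called was 58.3%, against 27.7% of all tested genes. The POU factors acj6 and pdm3, which select receptor genes and axon targets in subsets of olfactory neurons, changed in opposite directions. For acj6 (FBgn0000028, chromosome X, 15350239 to 15379064) the values were 142, 138 and 133 CPM in PCD-blocked libraries 1 to 3, against 123, 126 and 119.9 CPM in control libraries 1 to 3. All PCD-blocked libraries were above the control libraries, with a log2 fold change of 0.16 ± 0.03 (SE) and adjusted p = 0.0071 (edgeR). For pdm3 (FBgn0261588, chromosome 2R, 8327490 to 8396280) they were 104, 118 and 113 CPM in PCD-blocked libraries 1 to 3, against 129.6, 146 and 135 CPM in control libraries 1 to 3. Here all PCD-blocked libraries were below the control libraries, with a log2 fold change of -0.30 ± 0.03 (SE) and adjusted p = 0.000261 (edgeR). DESeq2 did not make the acj6 call (adjusted p = 0.106; 0.0064 to 0.106 across the alternatives), while that of pdm3 stood in each alternative (1.24e-05 to 0.0078). The third POU gene, nub, had 40.7 ± 1.39 CPM in PCD-blocked antennae and 40.2 ± 0.495 CPM in control antennae and a log2 fold change of 0.02 ± 0.05 (SE), with a 95% interval of -0.09 to 0.13.

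The homeodomain gene en (FBgn0000577, chromosome 2R, 11524006 to 11528210), which encodes Engrailed and is expressed in part of the olfactory neurons, fell. Its values were 18.3, 17.9 and 19.4 CPM in PCD-blocked libraries 1 to 3, against 23.2, 24.1 and 26.3 CPM in control libraries 1 to 3, without overlap between the groups (log2 fold change -0.41 ± 0.06 (SE), edgeR adjusted p = 0.00146). Its paralogue inv, with which it shares regulatory sequence, lies 14310 bases from en. The inv libraries overlapped, with 31.2, 28.5 and 31.3 CPM in PCD-blocked libraries 1 to 3, against 29.1, 31.6 and 34.6 CPM in control libraries 1 to 3. Its log2 fold change was -0.07 ± 0.06 (SE) (edgeR adjusted p = 0.486), with a 95% interval of -0.21 to 0.08 that does not reach the value of en. Within libraries the ratio of en to inv, in CPM without length correction, was 0.612 ± 0.0216 in PCD-blocked libraries and 0.773 ± 0.0200 in control libraries (SD, n = 3). The 3 PCD-blocked ratios lay below the 3 control ratios, and a two-sided exact permutation test gave p = 0.10, the smallest it allows with 3 against 3 (0.15 adjusted over the 3 gene pairs compared). For all 3 gene pairs this permutation test took the groups as independent and did not use the sample pair.

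Seven-up (svp, FBgn0003651, chromosome 3R, 12258737 to 12302785), an orphan nuclear receptor, rose. It had 15.03, 17.2 and 15.2 CPM in PCD-blocked libraries 1 to 3, against 11.2, 12.4 and 11.8 CPM in control libraries 1 to 3, and the groups did not overlap (log2 fold change 0.42 ± 0.08 (SE), edgeR adjusted p = 0.00372). DESeq2 did not make this call (adjusted p = 0.132; 0.0017 to 0.132 across the alternatives). A gene inside the svp span, CG44037, shares 115 exon bases with it on the same strand and had at most 1 count per library.

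Most of the other genes of this group (Xbp1, onecut, Eip93F, Fer1, zf30C and sim) belong to a set found by RNA interference in olfactory neurons to be needed for normal odorant receptor expression. Xbp1 had 678, 694 and 707 CPM in PCD-blocked libraries 1 to 3, against 622, 629 and 606 CPM in control libraries 1 to 3, a log2 fold change of 0.16 ± 0.03 (SE) (edgeR adjusted p = 0.00754). The homeodomain gene onecut had 261, 250.1 and 247 CPM in PCD-blocked libraries 1 to 3, against 238, 239 and 225 CPM in control libraries 1 to 3, a log2 fold change of 0.11 ± 0.03 (SE) (edgeR adjusted p = 0.0368). Both had all PCD-blocked libraries above the control libraries. The ecdysone-induced gene Eip93F had 347, 343 and 318 CPM in PCD-blocked libraries 1 to 3, against 387, 391 and 332 CPM in control libraries 1 to 3, a log2 fold change of -0.14 ± 0.04 (SE) (edgeR adjusted p = 0.0198), and its groups overlapped. Of the 7 calls in the group these 3 were lost in the most alternatives. The call of onecut was lost with DESeq2 (adjusted p = 0.221), with no block (0.0946), with no expression filter (0.0584) and when any 1 sample pair was left out (adjusted p = 0.103, 0.1 and 0.169 without pairs 1, 2 and 3; 0.035 to 0.221 across the alternatives). That of Xbp1 was lost without pair 2 (0.0648) or 3 (0.0572, 0.00163 to 0.0648 across the alternatives), and that of Eip93F without pair 1 (0.0502) or 2 (0.186) and with no block (0.16, 0.00862 to 0.186 across the alternatives). The bHLH gene Fer1 and the zinc finger gene zf30C did not pass. Their log2 fold changes were -0.03 ± 0.04 (SE) and 0.00 ± 0.04 (SE), with 95% intervals of -0.12 to 0.06 and -0.08 to 0.09. The LIM-homeodomain gene Lim1 had 2.64 ± 0.406 CPM in PCD-blocked antennae and 2.75 ± 0.223 CPM in control antennae (SD, n = 3), and its interval of -0.52 to 0.40 allows a difference larger than most of those called here. The midline factor sim had 1 count in PCD-blocked libraries and none in control libraries.

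**Figure D3:**
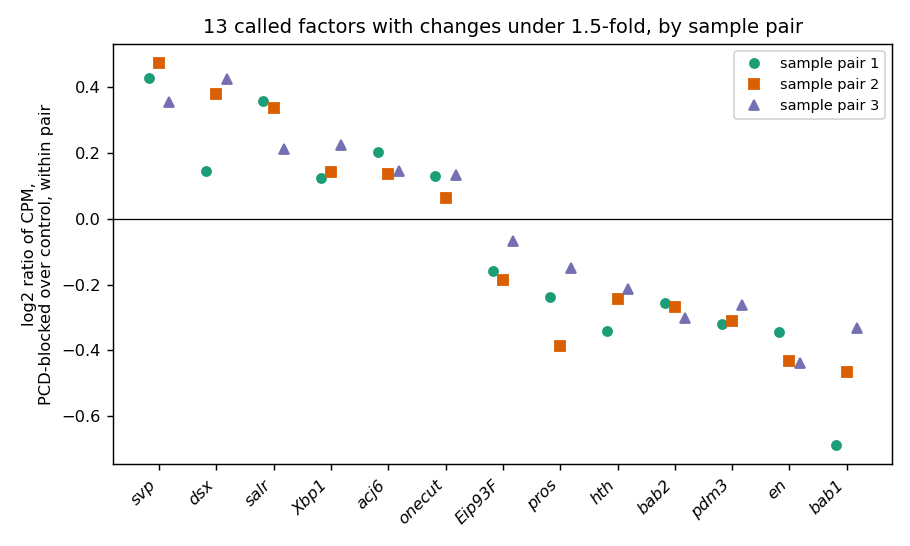
Log2 ratio of CPM within each sample pair (vertical axis, PCD-blocked over control) for the 13 called factors whose change was under 1.5-fold, from the highest fitted fold change to the lowest. All 3 pairs lie on one side of 0 for each gene. The same held for 2534 of the 2539 called genes among all tested genes, so it adds no support beyond the calls. The spread between pairs is widest for bab1, from -0.69 in pair 1 to -0.33 in pair 3.

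Patterning factors form the second large group. Of 12 genes 8 were tested, 1 was higher (salr), 3 were lower (hth, bab1, bab2) and 4 did not pass. Homothorax (hth, FBgn0001235, chromosome 3R, 10507561 to 10639568), a homeodomain factor that acts with Distal-less to make an antenna rather than a leg, had 364, 403 and 344 CPM in PCD-blocked libraries 1 to 3, against 461, 478 and 399 CPM in control libraries 1 to 3. The highest PCD-blocked library, number 2, lay above the lowest control library, number 3, but within each sample pair the PCD-blocked library was lower, and the log2 fold change was -0.27 ± 0.04 (SE) (edgeR adjusted p = 0.000767). An antisense gene that shares 207 exon bases with hth, asRNA:CR44018, had at most 2 counts per library. Its partner Dll did not pass, with 460.3 ± 34.8 CPM in PCD-blocked antennae and 476 ± 19.6 CPM in control antennae and a 95% interval of -0.14 to 0.04 for the log2 fold change. The retinal and appendage factor dac had 36.8 ± 3.65 CPM in PCD-blocked antennae and 40.0 ± 2.26 CPM in control antennae and a log2 fold change of -0.12 ± 0.05 (SE), lower in each of the 3 pairs but short of the threshold (edgeR adjusted p = 0.114).

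The BTB factors bab1 and bab2, neighbouring genes that pattern the distal appendage and take part in diversifying olfactory precursors, were both lower. The values of bab2 (FBgn0025525, chromosome 3L, 1140429 to 1177276) were 144, 148 and 134 CPM in PCD-blocked libraries 1 to 3, against 171, 178 and 165 CPM in control libraries 1 to 3. Those of bab1 (FBgn0004870, chromosome 3L, 1036369 to 1101089), which was less abundant, were 8.85, 10.9 and 10.1 CPM in PCD-blocked libraries 1 to 3, against 14.3, 15.1 and 12.6 CPM in control libraries 1 to 3. The groups did not overlap for either gene. The log2 fold change was -0.27 ± 0.03 (SE) for bab2 (edgeR adjusted p = 0.000339) and -0.49 ± 0.09 (SE) for bab1 (edgeR adjusted p = 0.00479, a call that DESeq2 did not make at 0.0831, with 0.000975 to 0.0831 across the alternatives). The ratio of bab1 to bab2 was 0.0702 ± 0.00743 in PCD-blocked libraries and 0.0815 ± 0.00444 in control libraries (SD, n = 3; two-sided exact permutation p = 0.10, adjusted 0.15).

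The neighbouring spalt genes salm and salr encode zinc finger factors needed for Johnston's organ, the auditory organ of the second antennal segment. For salr (FBgn0000287, chromosome 2L, 11358873 to 11373636) the values were 24.8, 24.4 and 22.8 CPM in PCD-blocked libraries 1 to 3, against 19.3, 19.3 and 19.7 CPM in control libraries 1 to 3, without overlap (log2 fold change 0.30 ± 0.06 (SE), edgeR adjusted p = 0.00785). Without sample pair 2 it was not called (adjusted p = 0.0922) nor with DESeq2 (0.211), with 0.00573 to 0.211 across the alternatives. All PCD-blocked libraries were also above the control libraries for salm, with 12.4 ± 0.686 CPM in PCD-blocked antennae and 11.04 ± 0.699 CPM in control antennae, but its log2 fold change of 0.17 ± 0.08 (SE) did not pass (edgeR adjusted p = 0.163). The ratio of salm to salr was 0.518 ± 0.0323 in PCD-blocked libraries and 0.568 ± 0.0379 in control libraries (SD, n = 3), and the groups overlapped (two-sided exact permutation p = 0.2, adjusted 0.2). Markers of the neurons of Johnston's organ summed to 459 to 524 CPM in PCD-blocked libraries and 442 to 448 CPM in control libraries. Nearly all of this sum was btv, which was not called. It had 478 ± 35.8 CPM in PCD-blocked antennae and 439.5 ± 4.49 CPM in control antennae (SD, n = 3). Of the 4 markers 3 were tested and 1, the channel gene nompC, was higher, with 7.99 ± 2.73 CPM in PCD-blocked antennae and 3.96 ± 1.04 CPM in control antennae (SD, n = 3). The groups overlapped for nompC, and its log2 ratio was 0.48, 0.76 and 1.69 within pairs 1 to 3. For iav counts were 21, 37 and 42 in PCD-blocked libraries 1 to 3, against 29, 22 and 14 in control libraries 1 to 3. For nan they were 1, 5 and 14, against 7, 5 and 4 in the same order. The iav gene was not called and nan was not tested. Apart from btv these markers were thus at low levels, and the sum says little about them. The part of the neurons of Johnston's organ in the salr result was not tested.

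**Figure D4:**
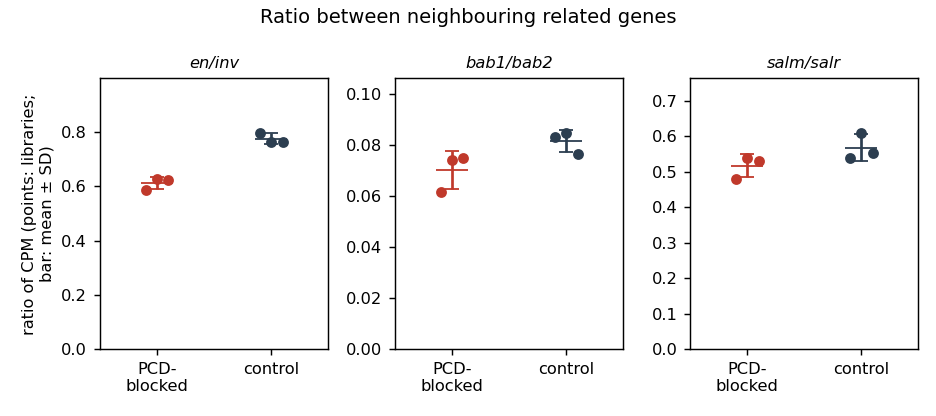
Ratio of CPM between neighbouring related genes (vertical axis, each panel from 0) in each library, with PCD-blocked left of control; bars give the mean and SD of 3 libraries. The en/inv ratios are 0.587 to 0.627 in PCD-blocked libraries and 0.761 to 0.796 in control libraries, while those of salm/salr overlap.

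The remaining patterning genes were near the detection limit. The LIM-homeodomain gene ap had 1.97 ± 0.484 CPM in PCD-blocked antennae and 2.42 ± 0.686 CPM in control antennae and a 95% interval of -0.76 to 0.18 for its log2 fold change. Rotund (rn), a zinc finger gene that diversifies olfactory precursors, was counted 14 times in the PCD-blocked libraries together and 14 times in the control libraries together. Over the same libraries the Iroquois homeodomain genes mirr, ara and caup had 16, 12 and 8 counts in PCD-blocked libraries, against 11, 8 and 4 in control libraries. These 4 genes did not pass the filter, and no difference between groups was detectable at this depth.

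Proneural genes of the precursor stage were almost undetected in the antennae of both groups. The proneural genes ato, which founds coeloconic sensilla and Johnston's organ, and amos, which founds basiconic and trichoid sensilla, had 0 counts in PCD-blocked libraries and 0 and 2 counts in control libraries. Senseless (sens), a zinc finger factor that stabilises the precursor, had 1 count in PCD-blocked libraries and 2 in control libraries. A count of 0 in a library allows up to 3 counts, or 0.168 to 0.191 CPM, a limit that covers counting error only. The Runx gene lz, which acts in precursors of basiconic and trichoid sensilla, was detected at 1.55 ± 0.111 CPM in PCD-blocked antennae and 1.501 ± 0.325 CPM in control antennae, with overlapping groups and an interval of -0.51 to 0.63 for the log2 fold change. Hamlet (ham, FBgn0045852, chromosome 2L, 18762874 to 18792906), a zinc finger factor of the PRDM family that resets the response to Notch between divisions in olfactory lineages, had 16, 17 and 23 counts in PCD-blocked libraries 1 to 3, against 11, 5 and 10 in control libraries 1 to 3. That is 1.10 ± 0.168 CPM in PCD-blocked antennae and 0.500 ± 0.185 CPM in control antennae (SD, n = 3), with a log2 fold change of 1.14 ± 0.35 (SE) and adjusted p = 0.0418 (edgeR). The groups did not overlap, but the call was lost when any 1 sample pair was left out (adjusted p = 0.0658, 0.201 and 0.13 without pairs 1, 2 and 3), with no expression filter (0.065) and with DESeq2 (0.427), with 0.0398 to 0.427 across the alternatives. The annotated neighbours of ham, CG15167, lncRNA:CR44904 and lncRNA:CR43804, had at most 1 count per library. The gene ss, listed with this group but described above as a factor of distal antennal identity, was at a far higher level. It had 577, 636 and 583 CPM in PCD-blocked libraries 1 to 3, against 569.6, 634 and 593 CPM in control libraries 1 to 3, and the 95% interval of its log2 fold change was -0.07 to 0.07.

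The pair of genes that carry sexual fate differed in their calls. Doublesex (dsx, FBgn0000504, chromosome 3R, 7924323 to 7967408) had 23.8, 27.6 and 26.7 CPM in PCD-blocked libraries 1 to 3, against 21.5, 21.2 and 19.9 CPM in control libraries 1 to 3, without overlap (log2 fold change 0.32 ± 0.07 (SE), edgeR adjusted p = 0.0102). Without sample pair 2 (adjusted p = 0.117), without sample pair 3 (0.0564) and with DESeq2 (0.164) it was not called, with 0.00437 to 0.164 across the alternatives. The gene lds shares 169 exon bases with dsx on the opposite strand and had 14.9 ± 0.681 CPM in PCD-blocked antennae and 14.6 ± 0.708 CPM in control antennae (SD, n = 3), with a log2 fold change of 0.03 ± 0.08 (SE). Fruitless (fru) had 130.1 ± 0.514 CPM in PCD-blocked antennae and 138 ± 7.72 CPM in control antennae (SD, n = 3), a log2 fold change of -0.08 ± 0.04 (SE), short of the threshold (edgeR adjusted p = 0.163), although it was called lower without sample pair 1 (0.0419, with 0.0419 to 0.612 across the alternatives). All samples were female, and counts per gene do not separate the sex-specific isoforms of either gene.

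Genes that act with these factors were examined in 6 further lists, which held 124 matched genes, of which 91 were tested. Of these 13 were higher and 9 lower, or 24.2%, against the 27.7% of all tested genes. DESeq2 called 12 of them, where it called 653 of all 9181 tested genes higher and 662 lower. Without sample pair 2, 14 passed, where 753 of all 9200 tested genes were higher and 728 lower.

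Of 19 tested genes of the Notch pathway 2 were higher and 2 lower, or 21.1%, against 27.7% of all tested genes. The transcriptional co-activator gene mam fell by 0.59 on the log2 scale to 44.6 CPM in PCD-blocked antennae, against 67.4 CPM in control antennae (edgeR adjusted p = 5.86e-05). The Notch antagonist numb fell by 0.22, the gamma-secretase gene nct rose by 0.26 and the target gene E(spl)mbeta-HLH by 0.31. The receptor gene N itself had 24.2 ± 1.022 CPM in PCD-blocked antennae and 25.7 ± 1.95 CPM in control antennae (SD, n = 3) and did not pass. The call of E(spl)mbeta-HLH was lost without sample pairs 1 (adjusted p = 0.183) and 2 (0.179) and with DESeq2 (0.459), the last being the highest value over the alternatives.

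Among 15 tested genes of precursor division and early neurons, 3 were higher (phyl, fne, brat) and 2 lower (sv, ttk). The share called was 33.3%, near the 27.7% of all tested genes. The Pax gene sv, which specifies shaft cells, fell by 0.37 to 134 CPM in PCD-blocked antennae, against 174 CPM in control antennae. The zinc finger gene ttk, a repressor of neuronal fate in support cells, fell by 0.29. The gene phyl, whose product targets Tramtrack for degradation, rose by 0.23, and the neuronal RNA-binding gene fne rose by 0.23 (adjusted p of these 4 genes from 0.000176 to 0.00306 with edgeR). Genes of proneural clusters and neuroblasts in this list were at low counts or did not pass. The proneural gene sc had 4, 6 and 8 counts in PCD-blocked libraries 1 to 3, against 3, 0 and 1 in control libraries 1 to 3; all PCD-blocked libraries were above the control libraries, but sc was under the expression filter and not tested. The neuroblast gene dpn had 14, 8 and 5 counts in PCD-blocked libraries 1 to 3, against 11, 16 and 16 in control libraries 1 to 3, with a 95% interval of -1.70 to 0.40 for its log2 fold change. For mira, an adaptor of asymmetric division, and insc, which orients such divisions, the intervals were -0.28 to 1.14 and -0.16 to 0.32. The genes ac, ase, l(1)sc, sna and wor had at most 3 counts in any library and were not tested. The pan-neuronal gene elav did not pass, with 213 ± 7.62 CPM in PCD-blocked antennae and 206 ± 10.4 CPM in control antennae (SD, n = 3). Of the 5 calls in the list DESeq2 made all but that of brat (adjusted p = 0.0601, the highest over the alternatives). Beside sv and ttk, support-cell markers moved in both directions, with lush and Obp19d lower, nompA and Obp28a higher and a list median of -0.01 (log2 fold change), and their part in these results was not tested.

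Of 14 further patterning genes tested, 2 were lower, namely ct, a homeodomain gene of external sense organs, which fell by 0.25, and the zinc finger gene disco-r, which fell by 0.31. None of the 14 was called higher by edgeR, 0 were higher at an unadjusted p under 0.05, and DESeq2 called 0 higher. The share called was 14.3%, all of it lower, near the 13.3% of all tested genes called lower. In either direction 27.7% of all tested genes were called.

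In the list of further neuronal factors 2 of 16 tested genes were higher, zfh1 by 0.44 and the BTB gene chinmo, a timer of neuronal identity, by 0.30. The zfh1 call was lost with DESeq2 (adjusted p = 0.0867, the highest over the alternatives). The BTB gene mamo was called lower at -0.12. In either direction the share called in this list was 18.8%, against 27.7% of all tested genes. The mamo call was lost with no block (adjusted p = 0.128), with DESeq2 (0.228), and without sample pair 2 (0.158) or 3 (0.247), the last being the highest over the alternatives. The Sox gene Sox102F had 7.07 ± 1.12 CPM in PCD-blocked antennae and 9.35 ± 1.30 CPM in control antennae (SD, n = 3), and its log2 fold change of -0.40 ± 0.13 (SE) fell short (edgeR adjusted p = 0.0556). It was called lower in 5 of the 9 alternatives, with adjusted p from 0.021 without sample pair 3 to 0.0485 with RLE size factors.

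The ecdysone cascade, to which Eip93F belongs, had 4 of 13 tested genes higher and 2 lower, or 46.2%, against 27.7% of all tested genes. The nuclear receptor gene Hr4 had the largest fold change of the list. Its counts were 35, 53 and 26 in PCD-blocked libraries 1 to 3, against 3, 15 and 19 in control libraries 1 to 3, without overlap (log2 fold change 1.68 ± 0.47 (SE), edgeR adjusted p = 0.028). Within pairs its log2 ratio was 3.69, 1.82 and 0.41, and it was not called without sample pair 1 (adjusted p = 0.0981) or 2 (0.178, the highest over the alternatives). The related gene Eip78C rose by 0.32, a call lost without sample pair 2 (0.144) or 3 (0.171) and with DESeq2 (0.362). The nuclear receptor gene ftz-f1 rose by 0.19 and the ETS gene Eip74EF by 0.21, while Blimp-1 fell by 0.20 and Hr78 by 0.13. Of the 6 called genes only ftz-f1 was called whichever pair was left out, and DESeq2 did not call it (adjusted p = 0.105). Without sample pair 2 the adjusted p was 0.102 for Eip74EF, 0.0664 for Blimp-1 and 0.114 for Hr78, and DESeq2 called Hr4 higher and Blimp-1 lower in this list. The receptor gene EcR had 116 ± 2.19 CPM in PCD-blocked antennae and 116 ± 3.71 CPM in control antennae (SD, n = 3). Among 14 chromatin regulators, the Myb-MuvB complex that restricts the carbon dioxide receptor genes and its partners, mip120 (0.26) and Dp (0.15) were higher and none was lower. The share called was 14.3%, against 27.7% of all tested genes, of which 14.3% were called higher. The Dp call was lost without sample pair 2 (adjusted p = 0.126) or 3 (0.109) and with no block (0.0569), DESeq2 called neither gene (0.178 for mip120 and 0.201 for Dp), and 0 genes of the list were lower at an unadjusted p under 0.05 or with DESeq2.

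**Figure D5:**
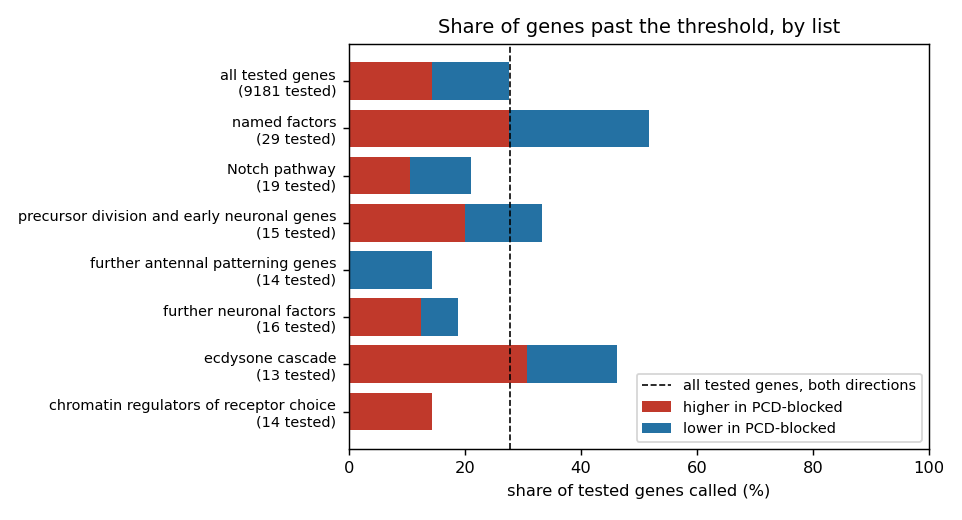
Share of tested genes called in each list (horizontal axis, percent), split into genes higher and lower in PCD-blocked antennae, with the number tested in brackets; the dashed line marks 27.7%, the share over all tested genes. The named factors reach 51.7%, and of the further lists the ecdysone cascade has the highest share, 46.2%. Factors and lists were chosen with earlier results of these data known, so the shares only describe them.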

How the data were processed

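The deposited values are raw read counts per gene, 1 file per library. Per the submitters' processing notes the authors used HTSeq 0.9.1, STAR 2.5.3a and cutadapt 1.8 with build BDGP6; the sources used here give neither settings nor annotation release nor the use of strand. Per the labels' protocols, poly(A) RNA was made into libraries with a directional kit. Of 17698 identifiers, 17560 had a position in the BDGP6 annotation used for names, exon lengths and coordinates, which count from 1. The 5 rows that name no gene, 11.9% to 13.5% of counts, were left out.

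From the counts, edgeR 4.0.16 (R 4.3.3) gave TMM scaling, the default filter by group (9181 genes kept) and the quasi-likelihood test with the labelled sample pair as a block, since the design text calls the samples paired. Deviations of libraries of the same pair from their group means correlated at 0.07, 0.24 and -0.19 for pairs 1, 2 and 3, so the pairing comes from the labels and not from the values. p-values were adjusted over all tested genes. Standard errors and intervals come from the fold change and its F statistic. They are too small for nerfin-1, whose control value rested on 7 counts. Replicates differed by more than sampling noise (chi-square per degree of freedom 4.12 to 10.6), so none was treated as a duplicate. The test was checked on simulated counts that held no pair effect. It recovered 48.8% of 1.2-fold changes and 82.4% of 1.5-fold changes, with 3.70% of its calls false. In the simulation many changes of the smaller size were thus missed. Each simulated draw held only 200 changed genes among 9181, whereas 2539 genes were called in the real comparison. Recovery and false calls with a share of changed genes that large were not measured.

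The factors, lists and tests were chosen with earlier results of these data known. All 37 factors were to be named, with up to 4 genes of smallest p from each further list, the annotated neighbours of factors called with a log2 fold change over 1 and of peb, and the marker genes. Genes named outside that rule (N, elav, EcR, Hr4, Eip78C, brat, sc, dpn, mira, insc, ac, ase, l(1)sc, sna, wor, and the genes overlapping hth, svp and dsx) were picked with their values in view. The symbols esg and tx matched no identifier and are not analysed here. The alternatives were size factors by median of ratios (RLE), DESeq2 1.42.0, no filter, a stricter filter (1 CPM in 3 libraries), omission of each pair in turn, a fit with no block, and scaling that omits genes above 1% of counts. No sequences are printed.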

Additional observations from a re-analysis of the deposited data

How the results depend on the processing

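None of the 15 called factors changed direction in the 9 alternatives; 6 kept their call in each of them and 9 lost it in at least 1. The stricter filter did not test ham, so it gave no value for that gene. With no replicate block, 7 factors were higher and 6 lower, all 13 of them called with the sample pair as a block, which is the pairing the labels give; Eip93F and onecut were lost. DESeq2 called 653 genes higher and 662 lower of all tested genes, 2 factors higher and 6 lower, and 12 genes of the further lists. With 1 sample pair left out, genes called higher ran from 753 to 1065 and genes called lower from 728 to 1006, factors called higher from 3 to 7 and lower from 6 to 7, and genes called in the further lists from 14 to 21. Of 5 muscle markers, none of which was called with all pairs, Mhc, up, Mlc2 and bt were called lower without pair 3, at -3.45, -3.96, -2.66 and -1.28; bt was 0.23 with all pairs and up to 1.49 with another pair left out. The cause was not tested. RLE and the scaling without genes above 1% of counts each kept all 15 calls. Depth limits the 8 factors that did not pass the filter, for which no difference could be seen, and the tested factors under 3 CPM (Lim1, ap, lz, ham, and nerfin-1 in control antennae).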
